A study of Homo sapiens with 6 samples.

Results

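Y79 is an established human retinoblastoma line that carries an amplified MYCN gene. The 10 genes described here encode parts of the light response of cone photoreceptors, and they were taken by symbol from a table of 17013 genes, which held all 10. The 6 libraries were made from poly(A)-selected RNA of Y79 cells: 3 from cells transduced with an shRNA against MYCN and 3 from cells transduced with a control shRNA. The labels place them in 1 batch and describe them as independent biological replicates; how many hairpins were used is not stated in the sources used here, so the replicates measure spread between libraries and not between hairpins. The study compares the transcripts of cells with and without MYCN knockdown, and both groups share the amplified MYCN background of the line.

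Cones detect light with an opsin that activates the G protein transducin, whose cone form is built from GNAT2, GNB3 and GNGT2. Transducin releases the inhibitory subunit PDE6H from the catalytic subunit PDE6C of a phosphodiesterase, cyclic GMP falls, and the channel made of CNGA3 and CNGB3 closes. The cone arrestin ARR3 shuts off the opsin, and RGS9, which rods share, speeds the shut-off of transducin. Retinoblastoma cells are known to express several genes of cone precursors.

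Promoters were available from RefSeq for 7 of the 10 genes (build GRCh38.p14, 250 bases before to 50 after the annotated start), and those of GNB3, GNGT2 and CNGB3 are not shown. The 3 genes with the highest fold changes among the 7 that were tested are given below, followed by CNGA3, which differed little between the groups. Capitals mark TAATCC or TAATCT, the core sequence bound by the photoreceptor factors CRX and OTX2, found on either strand. The windows are PDE6H at chr12:14972792-14973091, PDE6C at chr10:93612287-93612586, ARR3 at chrX:70268084-70268383 and CNGA3 at chr2:98346206-98346505, each on the plus strand.
PDE6H: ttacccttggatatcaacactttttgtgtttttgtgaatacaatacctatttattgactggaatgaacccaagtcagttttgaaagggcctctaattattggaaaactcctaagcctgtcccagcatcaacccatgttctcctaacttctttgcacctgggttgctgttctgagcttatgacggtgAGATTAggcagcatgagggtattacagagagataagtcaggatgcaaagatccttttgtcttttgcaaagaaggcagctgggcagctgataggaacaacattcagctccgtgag
PDE6C: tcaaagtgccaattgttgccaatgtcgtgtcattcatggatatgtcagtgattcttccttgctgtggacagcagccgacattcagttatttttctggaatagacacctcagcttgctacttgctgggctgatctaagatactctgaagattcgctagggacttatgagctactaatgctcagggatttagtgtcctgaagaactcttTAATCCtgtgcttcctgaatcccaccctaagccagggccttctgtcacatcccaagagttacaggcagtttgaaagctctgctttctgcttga
ARR3: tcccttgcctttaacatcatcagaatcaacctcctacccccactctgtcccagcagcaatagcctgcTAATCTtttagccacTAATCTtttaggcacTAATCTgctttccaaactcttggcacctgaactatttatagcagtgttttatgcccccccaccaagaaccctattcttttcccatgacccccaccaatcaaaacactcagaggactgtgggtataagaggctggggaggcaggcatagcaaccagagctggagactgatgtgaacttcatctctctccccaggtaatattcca
CNGA3: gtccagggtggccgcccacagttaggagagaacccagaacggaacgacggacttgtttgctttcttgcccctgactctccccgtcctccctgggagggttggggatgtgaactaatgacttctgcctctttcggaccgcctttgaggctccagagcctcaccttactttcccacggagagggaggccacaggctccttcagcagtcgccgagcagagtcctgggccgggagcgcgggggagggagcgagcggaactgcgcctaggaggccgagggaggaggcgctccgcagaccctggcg

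ARR3 held TAATCT at 3 places, 183, 168 and 153 bases before its start. PDE6H held its reverse complement 64 bases before the start, and PDE6C held TAATCC 43 bases before the start. Over all members with a RefSeq window, 5 of 7 held one of these cores, against 12.8% of 35116 windows of the same length. CNGA3 and RGS9 had no match in these letters. CACGTG, the E-box that MYC and MAX proteins bind, occurred in 1 member, 149 bases before 1 of the 2 annotated starts of GNAT2, and in 7.26% of all windows. AGGTCA, a half-site of nuclear receptors, also occurred in 1 member, as its reverse complement 48 bases before the other GNAT2 start, and in 13.8% of all windows. The motifs, searched on both strands, were chosen after these promoters had been seen and GNAT2 had 2 windows to match in, so the count of members with a core is a description and not a test. These matches describe the sequences only; binding was not measured here.

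The libraries held 15490263 to 16078416 estimated counts, and 12819 genes had enough counts to test. Values are given in CPM, read counts relative to the size of the library, after TMM scaling, a correction for differences in library composition. MYCN itself measured 2413, 2284 and 2195 CPM with the MYCN shRNA, against 3046, 3128 and 2876 CPM with the control shRNA, so the target was lower in all 3 libraries and stayed abundant. Its log2 fold change was -0.39 ± 0.043 (SE; edgeR quasi-likelihood test, adjusted p = 8.03e-11).

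Of the 10 cone genes, 7 reached the count minimum of the test in all 6 libraries, and all 7 rose with the MYCN shRNA (edgeR quasi-likelihood test, Benjamini-Hochberg adjusted p under 0.05). Of all 12819 tested genes, 75.8% were called by the same rule, 38.0% higher and 37.9% lower. The libraries of the groups did not overlap for any of the 7, as for 76.8% of all tested genes. The rise was at least 2-fold for 4 of them, PDE6C, PDE6H, ARR3 and GNGT2, against 9.24% of all genes. The median log2 fold change of the 7 was 1.27, beside 0.0046 over all tested genes, and the 7 values spanned 0.17 for GNB3 to 3.92 for PDE6C. GNB3 and CNGA3 stood at the 61.8th and 67th percentiles, inside the 25th to 75th percentile range of all tested genes (-0.37 to 0.40). The other 3 genes, RGS9, CNGB3 and OPN1SW, stayed below the minimum in every library. Scaling by library size alone moved the median of all tested genes to 0.19 and the same 7 cone genes were called higher. In bulk RNA, more cells with a transcript and more of it per cell cannot be told apart.

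**Figure D1:**
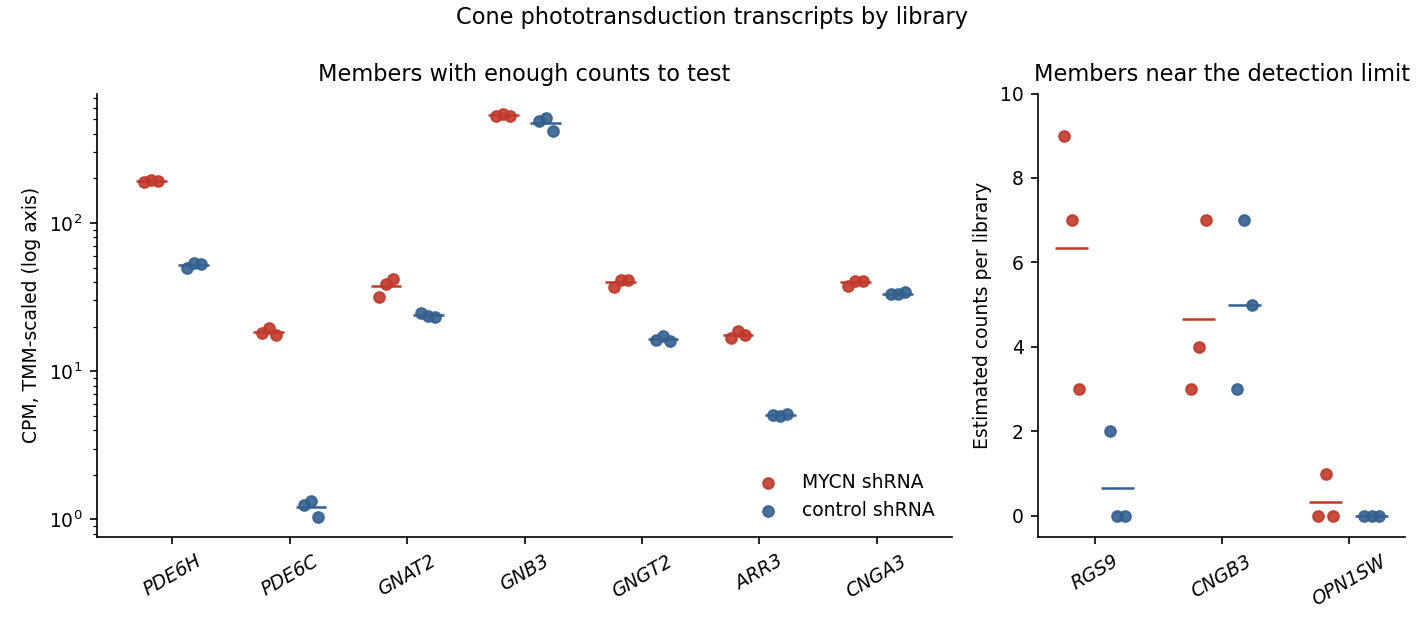
Left, CPM after TMM scaling (log axis) of the 7 tested cone genes; right, estimated counts of the 3 genes near the detection limit. Points are single libraries and lines are group means (n = 3 each), with MYCN shRNA in red and control shRNA in blue. PDE6C shows the widest gap, 17.5 to 19.5 CPM with the MYCN shRNA against 1.04 to 1.33 CPM in controls.

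The phosphodiesterase genes gave the widest differences. PDE6C, the catalytic subunit (chromosome 10, 93612588 to 93666010, GRCh38), measured 18.2, 19.5 and 17.5 CPM with the MYCN shRNA, against 1.25, 1.33 and 1.04 CPM with the control shRNA. Every MYCN shRNA library stood far above every control. The log2 fold change was 3.92 ± 0.144 (SE; edgeR quasi-likelihood test, adjusted p = 4.41e-26), a 15.1-fold difference at the 99.8th percentile of all tested genes. The control level rested on few reads, with 305, 323 and 286 counts with the MYCN shRNA against 19, 20 and 15 in controls. The ratio of the summed counts was 15.2 with an exact 95% counting interval of 11.5 to 20.4, which covers counting error only.

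PDE6H, the inhibitory subunit (chromosome 12, 14973022 to 14981865), measured 189, 194 and 193 CPM with the MYCN shRNA, against 49.4, 53.3 and 52.6 CPM with the control shRNA. The replicates of each group lay within a few CPM of each other and the groups were far apart. PDE6H rose 3.71-fold, a log2 fold change of 1.89 ± 0.045 (SE; adjusted p = 1.28e-32 by the edgeR quasi-likelihood test). The pair did not rise in proportion: within a library there were 10.4, 9.95 and 11 PDE6H counts per PDE6C count with the MYCN shRNA, against 39.6, 40.0 and 50.6 in controls. This ratio does not depend on scaling between libraries. Its log2 difference was -2.04 and the groups did not overlap (exact two-sided permutation test, p = 0.10, the smallest value 3 against 3 libraries can give; 0.1125 adjusted over the 9 gene pairs tested).

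The subunits of cone transducin all rose, by unequal amounts. GNGT2, the gamma subunit (chromosome 17, 49202791 to 49210574), measured 36.7, 41.5 and 41.2 CPM with the MYCN shRNA, against 16.3, 17.3 and 15.9 CPM with the control shRNA. It rose 2.41-fold, with a log2 fold change of 1.27 ± 0.071 (SE; edgeR quasi-likelihood test, adjusted p = 6.05e-20). GNAT2, the alpha subunit (chromosome 1, 109603267 to 109619929), measured 31.9, 38.7 and 41.8 CPM with the MYCN shRNA, against 24.8, 23.5 and 23.2 CPM in controls. The MYCN shRNA libraries were all higher but spread more widely, 37.5 ± 5.07 CPM against 23.8 ± 0.817 CPM in controls (SD, n = 3 each). The log2 fold change of GNAT2 was 0.65 ± 0.077 (SE; edgeR quasi-likelihood test, adjusted p = 6.22e-09).

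GNB3, the beta subunit (chromosome 12, 6839954 to 6847393), held the most counts of the members and had the smallest fold change of the 7. It measured 524, 546 and 525 CPM with the MYCN shRNA, against 485, 512 and 420.3 CPM with the control shRNA, so the gap between the groups was narrow beside the spread of the controls. The log2 fold change was 0.17 ± 0.053 (SE; edgeR quasi-likelihood test, adjusted p = 0.0064). It was 0.089 without control replicate 3, the lowest control, and DESeq2 did not call it (adjusted p = 0.0614). Each GNAT2 count was accompanied by 16.4, 14.1 and 12.6 GNB3 counts with the MYCN shRNA, against 19.6, 21.8 and 18.1 in controls. For GNGT2 these ratios to GNAT2 were 1.15, 1.07 and 0.987 with the MYCN shRNA, against 0.658, 0.736 and 0.684 in controls. Both sets of ratios separated the groups, one downward and one upward (exact two-sided permutation test, p = 0.10 each; 0.1125 adjusted).

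Genes on the opposite strand overlap these transducin genes, and the strand setting of the counting is not given in the sources used here. In GENCODE 29, exons of GNAI3 cover 96.96% of the exon bases of GNAT2, and exons of CDCA3 cover 15.97% of those of GNB3. GNB3 and CDCA3 counts were not whole, and their fractions complemented each other in every library (8808.85 and 995.15 in MYCN shRNA replicate 1). Some reads were thus divided between these genes, and GNB3 values depend on how that was done. What this adds to the GNB3 fold change was not tested. The log2 fold changes of GNAI3 and CDCA3 were -0.11 and -0.28 (edgeR quasi-likelihood test, adjusted p = 0.0144 and 3.81e-06). With library sizes alone that of GNAI3 turned to 0.074 and neither was called. ABI3 shares 7.76% of the exon bases of GNGT2 and held 2 to 12 counts in each library. GNAT2 counts were whole in every library and show no reads divided with GNAI3. Without strand, reads of GNAT2 and GNAI3 could still not be told apart.

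The shut-off genes differed in abundance. ARR3, the cone arrestin (chromosome X, 70268305 to 70281840), measured 16.7, 18.6 and 17.6 CPM with the MYCN shRNA, against 5.06, 5.002 and 5.13 CPM with the control shRNA. The controls were almost identical and the groups were well separated. ARR3 rose 3.48-fold, a log2 fold change of 1.80 ± 0.106 (SE; edgeR quasi-likelihood test, adjusted p = 3.9e-19). It kept close to PDE6H: a library held 0.0884, 0.0961 and 0.0913 ARR3 counts per PDE6H count with the MYCN shRNA, against 0.102, 0.0939 and 0.0975 in controls, and these ranges overlapped (exact two-sided permutation test, p = 0.2; 0.2 adjusted). RGS9 (chromosome 17, 65100812 to 65227703) held 9, 7 and 3 counts with the MYCN shRNA, against 2, 0 and 0 counts in controls. It was too rare for the test, and the ratio of its summed counts was 8.52 with a 95% counting interval of 2.06 to 75.5. Without the count minimum it passed (edgeR quasi-likelihood test, adjusted p = 0.00229). That fit called 5033 genes higher and 5059 lower of 16516.

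Of the channel subunits, only A was well detected. CNGA3 (chromosome 2, 98346155 to 98398601) measured 37.4, 40.8 and 40.8 CPM with the MYCN shRNA, against 33.0, 33.1 and 34.0 CPM with the control shRNA. The groups were close but did not overlap, and the log2 fold change was 0.25 ± 0.060 (SE; adjusted p = 2.52e-04 by the edgeR quasi-likelihood test). CNGB3, the B subunit (chromosome 8, 86553977 to 86743675), held 3, 4 and 7 counts with the MYCN shRNA, against 3, 7 and 5 counts in controls. The ratio of its summed counts was 0.837 with a 95% counting interval of 0.374 to 1.86, so no difference was detectable at this depth.

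OPN1SW, the opsin of short-wavelength cones (chromosome 7, 128772491 to 128775790), held 0, 1 and 0 counts with the MYCN shRNA and 0 counts in each control. A count of 0 allows up to 3 counts, or 0.197 to 0.208 CPM in a control library. The long- and middle-wavelength opsins OPN1LW and OPN1MW are near-identical copies, so reads may be split between them. OPN1LW held 16.6, 30.4 and 13.4 counts with the MYCN shRNA, against 1.34, 0 and 3 in controls. It reached the count minimum only in the MYCN shRNA libraries, so no test of it is given. OPN1MW held 4.09, 12.98 and 12 counts with the MYCN shRNA and 0 in each control. Opsin counts were low in all libraries.

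Levels between genes were compared as CPM per kb of exon, with exon lengths from GENCODE 29. With the MYCN shRNA the order ran from PDE6H at 257 ± 3.27 (SD, n = 3) and GNB3 at 155 ± 3.59 through GNAT2 at 27.1 ± 3.67 and GNGT2 at 23.6 ± 1.59 to ARR3 at 10.2 ± 0.556, CNGA3 at 9.07 ± 0.448 and PDE6C at 5.55 ± 0.312 CPM per kb. The ranges of GNAT2 and GNGT2 overlapped, so these neighbours did not differ beyond their spread. With the control shRNA GNB3 led at 138 ± 13.7 CPM per kb and PDE6H followed at 69.3 ± 2.76. Below them stood GNAT2 at 17.3 ± 0.592, GNGT2 at 9.76 ± 0.425, CNGA3 at 7.62 ± 0.122, ARR3 at 2.93 ± 0.0374 and PDE6C at 0.365 ± 0.0456 CPM per kb. PDE6H thus made up 52.2% to 53.4% of the per-length total of the 10 genes with the MYCN shRNA, against 26.9% to 30.6% in controls, while GNB3 made up 31.2% to 32.1% against 53.2% to 57.6%. Annotated exon length includes every isoform, so these levels depend on the isoforms used.

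**Figure D2:**
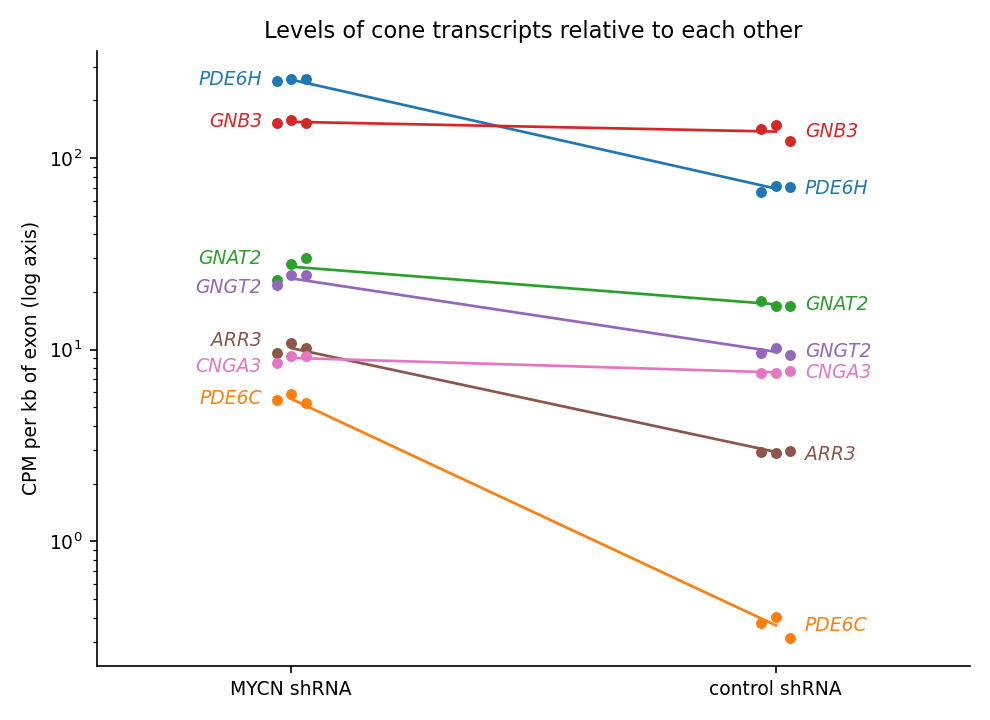
CPM per kb of exon (log axis) of the 7 tested cone genes with the MYCN shRNA (left) and the control shRNA (right). Points are single libraries and lines join the group means (n = 3 each). PDE6H stands above GNB3 with the MYCN shRNA, 257 against 155 CPM per kb, and below it with the control shRNA, 69.3 against 138.

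Each cone subunit was set beside the rod subunit of the same role. Of 10 rod counterparts 8 were tested, of which 3 rose and 3 fell (median log2 fold change -0.38), a share of calls near the 75.8% of all tested genes. PDE6A, a catalytic subunit of the rod phosphodiesterase, measured 38.6 ± 1.46 CPM with the MYCN shRNA and 93.5 ± 6.39 CPM with the control shRNA (SD, n = 3 each), a log2 fold change of -1.27 (edgeR quasi-likelihood test, adjusted p = 7.68e-24). Its partner PDE6B rose by 0.60 on the log2 scale (adjusted p = 1.94e-15). A library held 0.474, 0.522 and 0.434 PDE6C counts per PDE6A count with the MYCN shRNA, against 0.0145, 0.0136 and 0.0108 in controls. Every MYCN shRNA library stood above every control in this ratio (log2 difference 5.21; exact two-sided permutation test, p = 0.10; 0.1125 adjusted). Per kb of exon, PDE6C and PDE6A stood at 5.55 ± 0.312 and 5.21 ± 0.197 CPM with the MYCN shRNA, against 0.365 ± 0.0456 and 12.6 ± 0.861 CPM in controls (SD, n = 3 each). These 2 genes were thus close with the MYCN shRNA and far apart with the control shRNA, which did not hold for every pair.

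PDE6G, the rod inhibitory subunit, fell by 0.28 on the log2 scale (edgeR quasi-likelihood test, adjusted p = 0.0121). Libraries held 18, 18.7 and 20.4 PDE6H counts per PDE6G count with the MYCN shRNA, against 3.59, 4.93 and 4.24 in controls. The PDE6G call did not hold without MYCN shRNA replicate 3 or control replicate 1 (adjusted p = 0.0651 and 0.112), nor with DESeq2 or library sizes alone. GNB1, the widely expressed beta subunit that rods use, fell to 199.6 ± 6.01 CPM with the MYCN shRNA, against 367 ± 12.8 CPM with the control shRNA (SD, n = 3 each). GNB3 counts per GNB1 count were 2.67, 2.64 and 2.68 with the MYCN shRNA, against 1.38, 1.39 and 1.11 in controls.

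The alpha subunits and arrestins moved the same way in rods and cones. GNAT1, rod transducin, measured 2.87 ± 0.520 CPM with the MYCN shRNA and 1.05 ± 0.279 CPM with the control shRNA (SD, n = 3 each), a log2 fold change of 1.44 ± 0.239 (edgeR quasi-likelihood test, adjusted p = 9.27e-07). Its counts were low, 51, 38 and 54 with the MYCN shRNA against 19, 11 and 17 in controls. Libraries held 10.5, 16.9 and 12.7 GNAT2 counts per GNAT1 count with the MYCN shRNA, against 19.8, 32.0 and 19.7 in controls, the reverse of the phosphodiesterase pairs. SAG, the rod arrestin, rose by 1.56 ± 0.270 on the log2 scale (adjusted p = 1.98e-06) at 2.40 ± 0.621 CPM with the MYCN shRNA and 0.808 ± 0.206 CPM in controls. SAG held 34, 34 and 51 counts with the MYCN shRNA against 9, 15 and 12 in controls. Only 2 of the 3 control libraries reached the count minimum for SAG. GNGT1 (log2 fold change -0.47, adjusted p = 0.223, and -0.08 without control replicate 1) and CNGB1 (-0.57, adjusted p = 0.0675) did not pass, and CNGA1 held at most 2 counts in any library. CNGB1 passed without MYCN shRNA replicate 2 (-0.79, adjusted p = 0.0345) and stood at -0.37 without control replicate 1 (adjusted p = 0.317).

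**Figure D3:**
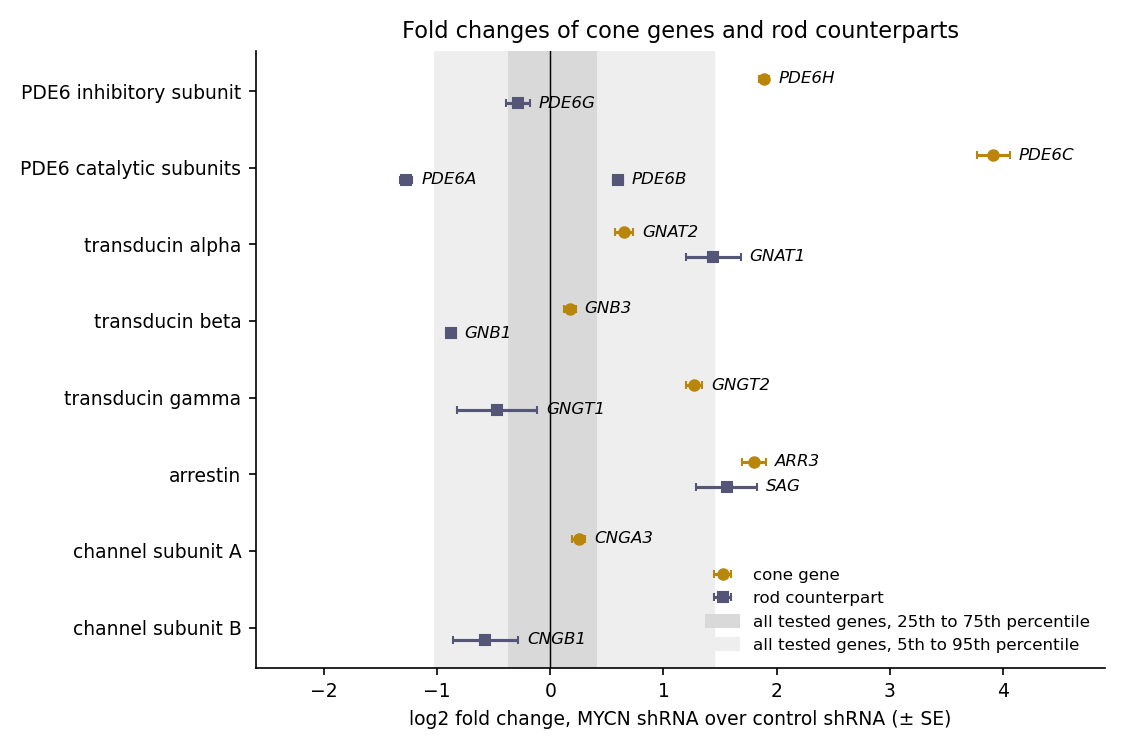
Log2 fold changes, MYCN shRNA over control shRNA, of the tested cone genes (circles) and their rod counterparts (squares) with standard errors, 3 libraries a group. Grey bands hold the middle of all tested genes, 25th to 75th percentile (-0.37 to 0.40) and 5th to 95th (-1.02 to 1.45). PDE6C, PDE6H, ARR3 and the rod arrestin gene SAG lie above the wider band, and PDE6A lies below it.

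The other genes of the cascade were followed in lists named for their roles. Of 8 further activation and shut-off genes 4 reached the count minimum in libraries of both groups, of which 3 rose and 1 fell, where 75.8% of all tested genes were called, 38.0% higher and 37.9% lower. Their median log2 fold change was 1.00, beside 0.0046 over all tested genes, and the list's OPN1LW, which reached the minimum only with the MYCN shRNA, is left out of both. RCVRN, which encodes the calcium sensor recoverin, measured 25.6 ± 1.72 CPM with the MYCN shRNA and 8.72 ± 0.767 CPM with the control shRNA (SD, n = 3 each; adjusted p = 1.61e-19). The opsin kinase GRK1 rose 1.80-fold, while the cone opsin kinase GRK7 held at most 2 counts in any library. RGS9 acts in a complex with GNB5 and the anchor RGS9BP, and these moved apart. GNB5 rose 2.23-fold to 76.1 ± 2.24 CPM, against 34.1 ± 1.59 CPM in controls (SD, n = 3 each; adjusted p = 2.48e-22). RGS9BP measured 4.37 ± 0.764 CPM with the MYCN shRNA and 5.801 ± 0.410 CPM in controls, a log2 fold change of -0.41 (adjusted p = 0.00994). That call was lost without MYCN shRNA replicate 1 or 2 (adjusted p = 0.0579 and 0.0595), with DESeq2 (0.053) and with library sizes alone (0.147).

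Of the genes that restore cyclic GMP and calcium after a light response, the table held 6 and 5 were tested. Of these 4 rose, against 38.0% of all tested genes, and none fell (median log2 fold change 1.28). GUCA1A, a calcium-sensing activator of guanylate cyclase, measured 29.95 ± 2.24 CPM with the MYCN shRNA and 2.39 ± 0.925 CPM with the control shRNA (SD, n = 3 each), a 12.5-fold rise (edgeR quasi-likelihood test, adjusted p = 1.06e-21). GUCA1A held 463.39, 530.99 and 495.7 counts with the MYCN shRNA against 24.13, 51 and 31.59 in controls. Such counts are not whole, so some reads may be divided with another gene. Its log2 fold change of 3.64 ranged from 3.40 to 3.98 with 1 control left out. GUCA1B, of the same family, rose 6.25-fold, with 214, 206 and 237 counts with the MYCN shRNA against 31, 27 and 36 in controls (adjusted p = 1.72e-20). The cyclase gene GUCY2D rose 2.15-fold. The exchanger gene SLC24A1 did not pass (log2 fold change 0.16, adjusted p = 0.246), except with library sizes alone (0.35, adjusted p = 0.0163), and stood at 0.087 without MYCN shRNA replicate 2 and 0.092 without control replicate 3 (adjusted p = 0.605 and 0.556). SLC24A2, the cone exchanger, held at most 3 counts in any library.

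Genes for the assembly and trafficking of phosphodiesterase and transducin differed little and in both directions. All 7 were tested, 2 rose and 2 fell, fewer than the 75.8% called over all tested genes, and the median log2 fold change was 0.04. AIPL1, the chaperone that phosphodiesterase needs, measured 705 ± 4.97 CPM with the MYCN shRNA and 761 ± 3.63 CPM with the control shRNA (SD, n = 3 each). Its log2 fold change of -0.11 (edgeR quasi-likelihood test, adjusted p = 0.00893) turned to 0.073 with library sizes alone (adjusted p = 0.0532) and was not called with upper quartile scaling (adjusted p = 0.0772). RP2 rose by 0.44 and UNC119, which carries transducin, by 0.33, while PDCL, a helper of beta and gamma assembly, fell by 0.41 on the log2 scale.

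Among 10 transcription factors of photoreceptors 6 rose and 3 fell, beside 38.0% higher and 37.9% lower over all tested genes (median log2 fold change 0.72). THRB, the thyroid hormone receptor needed for long- and middle-wavelength cones, rose 5.48-fold (edgeR quasi-likelihood test, adjusted p = 4.64e-30), and NRL, the rod determinant, rose 2.40-fold (adjusted p = 1.5e-27). OTX2, which binds the core sequence shown above, fell to 679.5 ± 9.40 CPM with the MYCN shRNA, against 1078 ± 26 CPM with the control shRNA (SD, n = 3 each). CRX, which binds the same core, rose 1.28-fold, while NEUROD1, a neuronal factor, fell by 0.74 on the log2 scale (adjusted p = 2.34e-20).

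**Figure D4:**
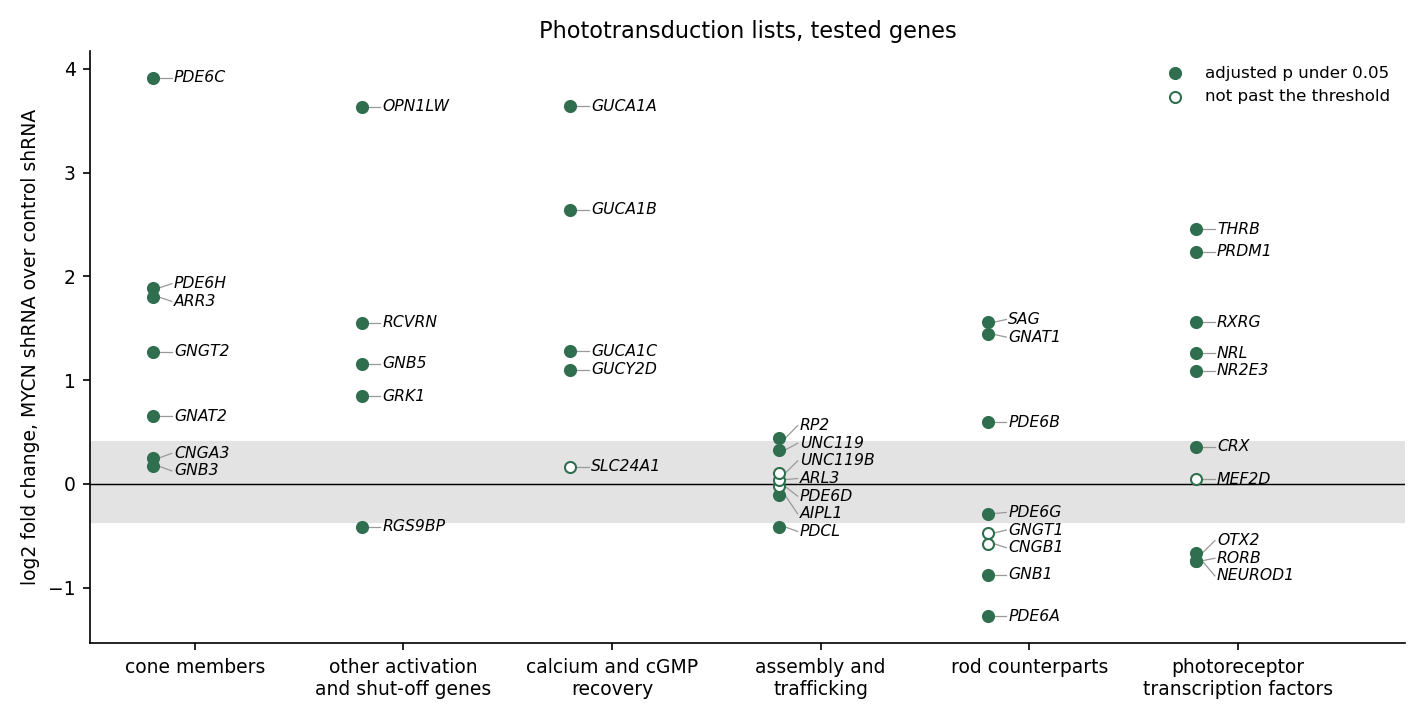
Log2 fold changes, MYCN shRNA over control shRNA, of every tested gene in 6 lists, including OPN1LW, which reached the count minimum only with the MYCN shRNA. Filled points passed adjusted p under 0.05 and open points did not, but the filled point of OPN1LW is not read as a test result. The grey band is the 25th to 75th percentile of all tested genes (-0.37 to 0.40). All 7 tested cone members and 4 of 5 recovery genes are filled and lie above 0, while assembly genes lie between -0.41 and 0.44. The cone members GNB3 (0.17) and CNGA3 (0.25) lie inside the grey band.

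Markers of other retinal and eye cells were measured in the same libraries, where 75.8% of all tested genes were called. Of 7 Müller glia markers 4 were tested, 2 rose and 1 fell, and the summed level was 1208 to 1236 CPM with the MYCN shRNA against 1166 to 1212 CPM in controls. The defining glial genes RLBP1 and AQP4 held at most 2 counts in any library. VIM rose 1.61-fold and CLU 1.97-fold, while GLUL, the most abundant of the list, fell to 655 CPM against 837 CPM in controls. SOX9, below the count minimum of the test, held 9, 24 and 11 counts with the MYCN shRNA against 1, 1 and 3 in controls. Pigment epithelium markers numbered 5, of which 2 reached the minimum in both groups and 1 of them rose. All 5 summed to 11.3 to 13.3 CPM with the MYCN shRNA against 3.71 to 3.83 CPM in controls. That sum includes RPE65, at a mean of 4.72 CPM with the MYCN shRNA against 0.244 CPM in controls. RPE65, the retinoid isomerase, held 83, 75 and 77 counts with the MYCN shRNA against 5, 5 and 1 in controls and reached the minimum only with the MYCN shRNA, whereas TTR held at most 1 count. Bipolar markers (3 tested, 2 higher, 1 lower) summed to 96.5 to 102 CPM with the MYCN shRNA against 87.6 to 92.9 CPM in controls, and retinal progenitor markers (4 tested, 3 higher, 1 lower) to 159 to 169.7 CPM against 159 to 165 CPM, with SOX2 at 0 in every library. The progenitor marker that fell was CCND1, at 10.7 CPM with the MYCN shRNA against 51.0 CPM in controls. Amacrine and horizontal markers had 0 higher and 3 lower of 4 tested. They summed to 60.4 to 66.0 CPM with the MYCN shRNA against 74.4 to 77.6 CPM in controls. Ganglion cell markers had 1 higher and 1 lower of 5, with ISL1 at 0 throughout. Their sums were 59.7 to 69.8 CPM with the MYCN shRNA against 72.4 to 75.95 CPM in controls. Fibroblast markers also numbered 5, of which 2 reached the minimum in both groups and 1 of them rose. All 5 summed to 5.06 to 6.43 CPM with the MYCN shRNA against 2.22 to 2.67 CPM in controls. That sum includes COL1A2 (1.87 against 0.424 CPM), which reached the minimum only with the MYCN shRNA. Of 4 tested pineal markers 2 rose and 1 fell, at sums of 80.7 to 85.2 CPM with the MYCN shRNA against 84.4 to 93.15 CPM in controls. The part of any of these cell markers in the cone results was not tested.

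The profile of the 7 tested cone genes over the 6 libraries, as their mean centred log2(CPM + 1), was 0.56, 0.69 and 0.66 with the MYCN shRNA, against -0.63, -0.60 and -0.68 with the control shRNA. Among 10742 other genes with at least 5 CPM, the nearest by Euclidean distance were PRICKLE2 (0.0833), SDC2 (0.0927), NEDD4L (0.0957), PIGA (0.0967) and SCCPDH (0.101). PRICKLE2 is a planar cell polarity gene, SDC2 encodes syndecan, NEDD4L a ubiquitin ligase and PIGA an enzyme of membrane anchor synthesis. NEDD4L measured 204 ± 11.5 CPM with the MYCN shRNA and 80.1 ± 2.10 CPM with the control shRNA (SD, n = 3 each). The distance compares the 6 libraries only, of which 3 share each treatment.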

How the data were processed

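Poly(A)-selected RNA of Y79 cells, 3 libraries with a MYCN shRNA and 3 with a control shRNA, was extracted with TRIzol, per the labels. The authors deposited estimated counts per gene symbol, not scaled between libraries; the header calls them read counts and 12.5% to 12.8% of values are not whole. Reads were placed on GRCh38, per the submitters' processing notes. Aligner, counter, annotation and strand setting: not given in the sources used here. Of 17035 rows, 22 held no values. Replicates were distinct libraries (chi-square per degree of freedom 1.73 to 4.23 over genes with at least 50 counts).

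Estimated counts were rounded and tested with edgeR 4.0.16 in R 4.3.3 (TMM, filterByExpr with a minimum of 10 counts, robust quasi-likelihood F-test, Benjamini-Hochberg over 12819 genes, threshold 0.05). Adjusted p-values of single genes come from this test unless another tool is named. Standard errors were derived from the F statistic. Alternatives were DESeq2 1.42.0, limma-voom 3.58.1, other scalings and filters, a replicate block and each library left out. Ratios were tested where both genes had at least 10 counts in each library. In simulated counts for this comparison (12724 genes, 200 changed), the test recovered 71.4% of the 1.2-fold, 86.9% of the 1.5-fold and 95.9% of the 2-fold changes. The simulation gave every gene the same variability between libraries and the groups the same composition. In the data 75.8% of tested genes were called and TMM factors differed by group, so this recovery may not hold for them.

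Named genes are the 10 members, MYCN, the 2 members of each cascade list with the smallest p in each direction, the rod partners and the 5 nearest profiles. GRK1, GUCY2D, SLC24A1, CRX, RPE65, the other named markers of other cells, the opsins and genes at the detection limit were added after their values were seen. Members and lists were chosen with earlier results of these data known. Positions and exon lengths came from GENCODE 29 and promoters from RefSeq; the motifs were chosen after the members' promoter sequences had been seen. Counting intervals are exact binomial and cover counting error only.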

Additional observations from a re-analysis of the deposited data

How the results depend on the processing

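The count of cone genes called higher was 7 in 12 of 15 other settings, 6 with DESeq2, which did not call GNB3, and 8 without a count minimum, which added RGS9. With a 2-fold minimum it was 4, beside 1184 higher and 673 lower genes in all. Cone genes called lower numbered 0 in each setting, and the 7 log2 fold changes were positive in all 14 fits. Leaving out 1 library gave 7 each time, with 4681 to 4835 higher and 4662 to 4852 lower genes over the whole table. Library sizes alone gave 6597 higher and 3348 lower, against 4865 and 4857 as reported. This setting leaves out the TMM factors, 1.059 to 1.07 with the MYCN shRNA and 0.93 to 0.9478 with the control shRNA. The log2 fold changes therefore moved upward together, and the median of all tested genes went from 0.0046 to 0.19. With this shift AIPL1 (0.073) and GNAI3 (0.074) changed sign. GNB3 moved to 0.35, CNGA3 to 0.43, CRX to 0.54, UNC119 to 0.51, PDCL to -0.23 and MYCN to -0.21. Why the factors differed by group was not tested. Of 572 values of named genes, markers of other cells aside, 555 kept direction and call under these alternatives. The replicate block also called 7 cone genes higher, with 4967 higher and 4939 lower in all. The libraries share only numbers: same-numbered deviations correlated at 0.14, 0.115 and 0.0818, and each library correlated best with its own number, a hint from the data and not the design. The log2 differences of the 9 gene ratios kept their sign without any 1 library and with 1 added to each count; with 3 libraries a group none could pass 0.05. At this depth genes with under 10 counts a library, such as CNGB3, OPN1SW and RGS9, allow only wide intervals.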
